A study of Homo sapiens with 6 samples.

Results

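The genes described here encode the membrane proteins and coat proteins of caveolae, together with membrane-bending proteins that act at the neck of these pits. They were taken by gene symbol from the deposited count table, and all 7 (CAV1, CAV2, CAVIN1, CAVIN3, EHD2, PACSIN2 and PACSIN3) were found among its 21494 genes. RNA-seq was performed on cells labelled G361, a human melanoma line, with 3 samples expressing a control shRNA (Control sh, genotype given as WT) and 3 samples expressing an shRNA against VprBP, a protein encoded by DCAF1 (VprBP sh, genotype given as DCAF1 Knockdown). Per the study's methods, a single shRNA directed at the VprBP coding region was delivered by lentivirus and infected cells were selected with puromycin. The labels also give LD611 as the source of all samples, which does not match the cell line name. They do not say whether the 3 samples of a group came from separate cultures, so the p-values below measure only the spread between these samples, which may be technical.

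Caveolae are small flask-shaped pits of the plasma membrane. Caveolin-1, encoded by CAV1, forms the oligomers that shape the pit, and caveolin-2, encoded by CAV2, joins caveolin-1 in mixed oligomers. Cavins make up the peripheral coat, with cavin-1 required for the pit to form and other cavins binding to it. EHD2 is an ATPase that encircles the neck and holds the caveola at the cell surface, while the F-BAR proteins PACSIN2 and PACSIN3 bend and tubulate membrane there. Caveolae buffer membrane tension, take part in lipid uptake and hold signalling proteins.

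Values are given below as normalized counts, which are the deposited counts scaled by the upper quartile of each sample. Called genes had an adjusted p-value under 0.05, from the quasi-likelihood test of edgeR with Benjamini-Hochberg adjustment over all 16756 genes tested, and a change of more than 2-fold. DCAF1, the targeted gene, had 789, 961 and 830 normalized counts in the controls against 753, 502 and 477 in the knockdown samples, and its log2 fold change was -0.58 (standard error 0.17, adjusted p = 0.0125 by edgeR's quasi-likelihood test), which is less than 2-fold and, with library size scaling, became -0.37 (adjusted p = 0.0851 by edgeR). Without replicate 1 of either group, the log2 fold change of DCAF1 was -0.87. With replicates 2 and 3 summed into 1 sample it was -0.46 (adjusted p = 0.0839 by edgeR). VprBP sh replicate 1, at 753, lay close to the lowest control, at 789. The total of counts ran from 18195949 to 26883948 per sample. Replicates 2 and 3 lay nearer to each other than to replicate 1 in both groups (root mean square log2 difference 0.440 against 0.537 to 0.539 in Control sh, 0.370 against 0.527 to 0.562 in VprBP sh), and samples of different groups were 2.64 to 2.67 apart. The mitochondrial share of the counts was 1.96% to 1.98% without and 4.10% to 4.48% with VprBP knockdown. The summed normalized counts of melanocyte markers were low, 197 to 234 without and 242 to 305 with VprBP knockdown, with 4 of 7 markers in the table and MLANA and TYRP1 at 5 counts or fewer (TYR, DCT and SOX10 had no entry under these names in the deposited table), which goes against the melanoma label. Urothelial markers, 6 of 8 in the table, summed to 95669 to 108928 against 24150 to 27534. Most of these sums came from the keratins KRT5 (mean 64337 in Control sh, 3453 in VprBP sh) and KRT7 (34733 and 21360). The uroplakin genes UPK1B and UPK2 had means of only 643 and 209 in Control sh, and KRT20 and UPK3A had no entry. KRT5, KRT13, UPK1B and UPK2 fell, KRT7 was not called, and GATA3 rose from 7, 1 and 0 to 1580, 1334 and 1873 counts. Endothelial markers (5 of 5 in the table, 3 of 4 tested lower) summed to 691 to 716 against 32.1 to 40.2, and fibroblast markers (5 of 7 in the table, 3 of 4 tested lower, LUM at 0 in VprBP sh) to 760 to 801 against 454 to 596. Among all genes tested, 22.0% were called lower and 24.5% higher. The part of these marker shifts in the decrease of the caveolin and cavin genes was not tested.

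After VprBP knockdown, 5 of the 7 genes were called lower and 0 were called higher. The groups differed widely across the whole table, and 46.4% of all genes tested were called, 22.0% lower and 24.5% higher. This split depends on the scaling, since 52.7% of the calls were higher here, against 60.1% with library size alone, 48.8% with TMM factors and 47.7% with DESeq2. The median log2 fold change of the 7 genes was -4.06, also with CAVIN3 set at its bound, against 0.08 for all genes tested. Both caveolins, both cavins and EHD2 fell, and PACSIN2 and PACSIN3 were not called. The 104 refits of single genes among the 7 under other settings kept the direction and the call. In this bulk measurement, fewer cells that express a gene and less RNA per cell cannot be told apart. Nor can VprBP knockdown be told apart from any other difference between the cells of the groups in this design. Without replicate 1 of either group, CAV1, CAV2, CAVIN1, CAVIN3 and EHD2 were again called lower, with CAV1 at -7.35, CAV2 at -3.23, CAVIN1 at -4.10 and EHD2 at -6.42 on the log2 scale.

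**Figure D1:**
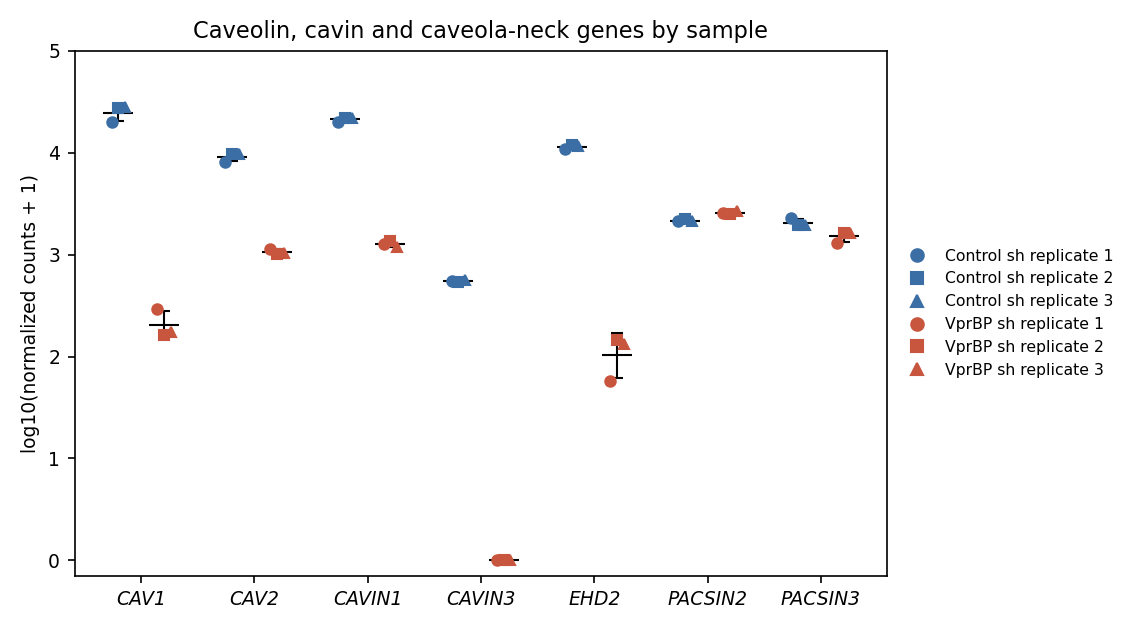
Normalized counts of the 7 genes on a log10 scale (value plus 1) in each sample, with Control sh in blue and VprBP sh in red, a marker shape per replicate number, and black lines for the mean ± SD of the plotted values (n = 3). CAV1, CAV2, CAVIN1, CAVIN3 and EHD2 lie far below Control sh in every VprBP sh sample, with CAVIN3 at 0, while PACSIN2 and PACSIN3 stay close to it.

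CAV1 (ENSG00000105974.13) is on the plus strand of chromosome 7 at chr7:116524994-116561179 (hg38), and its MANE Select transcript has 3 exons. It had 19801, 27477 and 27885 normalized counts in Control sh replicates 1, 2 and 3, and 292, 163 and 174 in VprBP sh replicates 1, 2 and 3. All 3 VprBP sh samples lay far below all Control sh samples, and replicate 1 was the lowest Control sh sample and the highest VprBP sh sample. The means were 25054 ± 4554 (SD, n = 3) and 209 ± 71.6 (SD, n = 3), so that 0.836% of the Control sh level was measured after VprBP knockdown. The log2 fold change was -6.91 (standard error 0.26, adjusted p = 1.66e-08 by edgeR's quasi-likelihood test), a 120.5-fold decrease. Ordered from the steepest decrease, CAV1 stood at place 863 of the 16756 genes tested.

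CAV2 (ENSG00000105971.15) lies next to CAV1 on the same strand at chr7:116287380-116508541, with a MANE Select transcript of 3 exons at chr7:116499738-116508541. Its normalized counts were 8065, 9617 and 9618 in Control sh and 1138, 1019 and 1035 in VprBP sh. The groups did not overlap, but the VprBP sh samples kept a clearly measurable level. The means were 9100 ± 896 (SD, n = 3) and 1064 ± 64.7 (SD, n = 3), which left 11.7% of the Control sh level. CAV2 fell, and its log2 fold change was -3.10 (standard error 0.10, adjusted p = 8.15e-09 by edgeR's quasi-likelihood test), or 8.55-fold.

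The 2 caveolins were compared within each sample because their products share oligomers. The ratio of CAV1 to CAV2 was 2.45, 2.86 and 2.90 in Control sh and 0.257, 0.160 and 0.169 in VprBP sh. CAV1 exceeded CAV2 in normalized counts in every Control sh sample and was below it in every VprBP sh sample, although these counts are not divided by gene length. On the scale of log2(normalized counts + 1), the difference of VprBP sh minus Control sh was -3.84, and an exact two-sided permutation test over the 6 samples gave p = 0.1 (adjusted p = 0.1 over the 4 ratios tested), the smallest that 3 samples against 3 allow.

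Promoter sequence was available from RefSeq (GRCh38.p14) for 4 of the 7 genes, CAV1, CAV2, EHD2 and PACSIN2. All 4 are shown. CAV1 and CAV2 sit side by side and fell to unequal extents, EHD2 fell about as far as CAV1 from another chromosome, and PACSIN2 was not called. Each line gives the 250 bases before the transcription start, 5′ to 3′ on the gene's own strand. The capitals mark the GC box GGGCGG, which is the consensus bound by SP1 family factors, and the CCAAT box, each on either strand. The windows are chr7:116524786-116525035 (plus strand) for CAV1, chr7:116499488-116499737 (plus strand) for CAV2, chr19:47713172-47713421 (plus strand) for EHD2 and chr22:43015150-43015399 (minus strand) for PACSIN2.
CAV1: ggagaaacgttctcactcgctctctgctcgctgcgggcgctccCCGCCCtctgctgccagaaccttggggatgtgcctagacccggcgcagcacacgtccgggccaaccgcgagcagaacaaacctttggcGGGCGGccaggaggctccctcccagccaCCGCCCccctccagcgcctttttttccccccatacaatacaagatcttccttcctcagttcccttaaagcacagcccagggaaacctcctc
CAV2: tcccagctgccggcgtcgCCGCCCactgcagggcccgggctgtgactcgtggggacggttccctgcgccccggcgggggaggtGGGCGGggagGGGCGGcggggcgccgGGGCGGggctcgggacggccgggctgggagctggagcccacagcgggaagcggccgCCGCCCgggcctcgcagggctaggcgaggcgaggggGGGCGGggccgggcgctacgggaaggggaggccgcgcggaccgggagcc
EHD2: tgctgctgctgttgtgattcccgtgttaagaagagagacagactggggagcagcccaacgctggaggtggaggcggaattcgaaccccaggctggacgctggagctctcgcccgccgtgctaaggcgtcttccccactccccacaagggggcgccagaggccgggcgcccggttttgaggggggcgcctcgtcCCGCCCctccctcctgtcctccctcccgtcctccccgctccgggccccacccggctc
PACSIN2: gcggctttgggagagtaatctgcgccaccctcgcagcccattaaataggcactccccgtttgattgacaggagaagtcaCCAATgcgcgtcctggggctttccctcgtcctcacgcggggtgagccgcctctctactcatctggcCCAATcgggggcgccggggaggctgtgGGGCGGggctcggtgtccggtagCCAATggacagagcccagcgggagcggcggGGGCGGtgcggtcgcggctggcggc

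The GC box letters occurred 3 times before CAV1, 6 times before CAV2, 1 time before EHD2 and 2 times before PACSIN2. Among all 35116 promoters of the same length, 42.6% held them. The CCAAT letters occurred 3 times before PACSIN2 and in none of the other 3 windows, against 32.0% of all promoters. TATAAA (10.7% of all promoters), the AP-1 letters TGANTCA (6.57%) and the TEAD letters GGAATG (11.9%) were in none of the 4 windows on either strand. The CAV2 window had the highest GC content of the 4, 83.2% with 35 CpG dinucleotides, which put it at percentile 99.0 of all promoters for GC content. The GC content was 63.2% with 16 CpG before CAV1, 69.6% with 20 before EHD2 and 68.0% with 24 before PACSIN2, where the median over all promoters was 58.0% with 11 CpG. Such matches describe the letters of these windows only and were not tested against expression.

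CAVIN1 (ENSG00000177469.13), encoding the cavin that organizes the coat, is on the minus strand at chr17:42402449-42423256 with 2 exons. It had 20070, 21872 and 21701 normalized counts in Control sh against 1270, 1350 and 1194 in VprBP sh. Replicates were close in both groups, and the groups were far apart. CAVIN1 fell from 21214 ± 995 to 1271 ± 77.6 (SD, n = 3 each), to 5.99% of the Control sh level. The log2 fold change was -4.06 (standard error 0.09, adjusted p = 1.12e-09 by edgeR's quasi-likelihood test), or 16.7-fold.

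CAVIN3 (ENSG00000170955.10), encoding a cavin that binds cavin-1 and caveolin-1, is on the minus strand at chr11:6318946-6320532 with 2 exons. Control sh samples held 481, 495 and 596 counts of it, whereas each of the VprBP sh samples held 0. In normalized counts, the Control sh samples were at 552, 533 and 559. A count of 0 allows up to 3 counts per sample at these depths, or 2.28 to 3.32 normalized counts in the VprBP sh samples, for counting error only. Against that limit CAVIN3 was at least 189-fold lower in VprBP sh, and it passed the test (adjusted p = 4.21e-08 by edgeR's quasi-likelihood test). Of its 1557 exonic bases, 571 (36.7%) are shared with an antisense transcript (ENSG00000282556.4), which had 7, 5 and 3 counts without and 0 with VprBP knockdown. Whether strand was used in counting is not given in the sources used here, so reads of the pair in the shared part cannot be told apart.

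CAV1 and CAVIN1 did not keep their Control sh proportion either. The ratio of CAV1 to CAVIN1 was 0.987, 1.26 and 1.28 in Control sh and 0.230, 0.121 and 0.146 in VprBP sh. No VprBP sh sample came near the Control sh range. The log2 ratio differed by -2.87, VprBP sh minus Control sh (exact two-sided permutation test, p = 0.1, the smallest possible, adjusted p = 0.1 over the 4 ratios). The ratio of CAVIN1 to CAVIN3 has no fixed value after VprBP knockdown, since CAVIN3 was at 0, and the difference of the log2 ratio was 5.04 with a pseudocount of 1 and 1.75 with a pseudocount of 10.

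**Figure D2:**
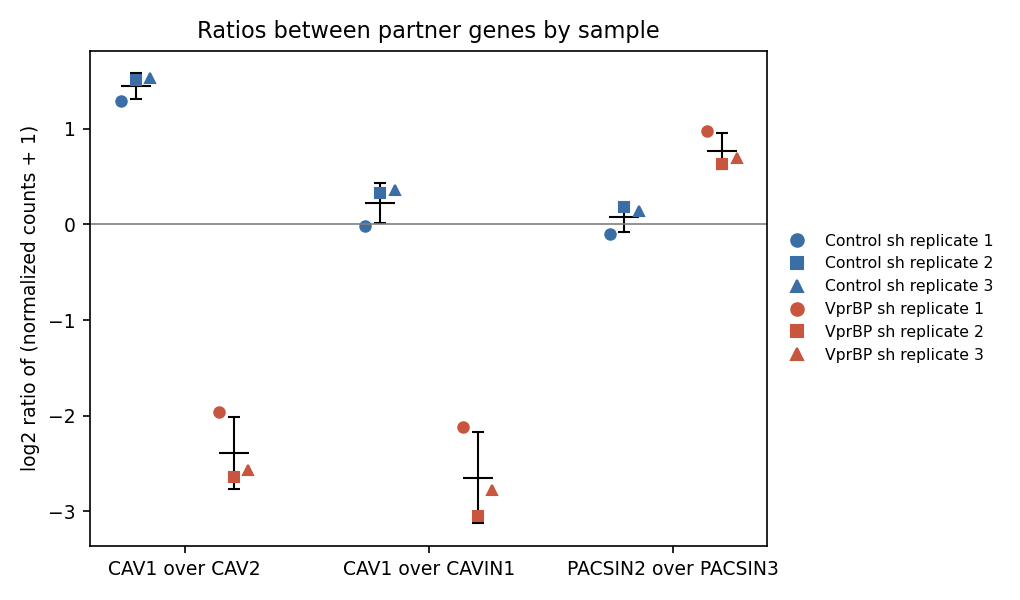
log2 ratio of normalized counts (plus 1) between partner genes in each sample, with Control sh in blue, VprBP sh in red and black lines for the mean ± SD (n = 3). CAV1 over CAV2 and CAV1 over CAVIN1 drop in all VprBP sh samples, and PACSIN2 over PACSIN3 is higher in all of them.

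EHD2 (ENSG00000024422.12), on the plus strand at chr19:47713422-47743134 with 6 exons, had normalized counts of 10825, 11788 and 11547 in Control sh and 56.4, 143 and 131 in VprBP sh. Replicate 1 was the lowest VprBP sh sample here, whereas it was the highest one for CAV1. EHD2 fell from 11387 ± 501 to 110 ± 46.8 (SD, n = 3 each), which left 0.966% of the Control sh level. The log2 fold change was -6.67 (standard error 0.27, adjusted p = 2.50e-08 by edgeR's quasi-likelihood test), or 102-fold.

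PACSIN2 and PACSIN3 were not called. PACSIN2 (ENSG00000100266.19), on the minus strand at chr22:42835412-43015149 with 11 exons in its MANE Select transcript, had 2119, 2219 and 2135 normalized counts in Control sh against 2580, 2521 and 2660 in VprBP sh. Every VprBP sh sample was above every Control sh sample, but by a small amount. The means were 2158 ± 53.6 and 2587 ± 69.6 (SD, n = 3 each), and the log2 fold change was 0.26 (standard error 0.07, adjusted p = 0.00832 by edgeR's quasi-likelihood test), short of 2-fold. With edgeR's TMM factors it was 0.16 (adjusted p = 0.0617 by the same edgeR test) and with DESeq2 it was 0.14 (adjusted p = 0.116), and without VprBP sh replicate 3 its adjusted p was 0.0511 by edgeR. PACSIN2 overlaps ARFGAP3 on the same strand, and 155 of its 4558 exonic bases (3.40%) are shared with other genes.

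PACSIN3 (ENSG00000165912.16), on the minus strand at chr11:47177522-47186443 with 11 exons, had 2266, 1958 and 1942 normalized counts in Control sh against 1306, 1631 and 1644 in VprBP sh. The groups did not overlap, with the VprBP sh samples lower. The means were 2055 ± 183 and 1527 ± 191 (SD, n = 3 each), and its log2 fold change was -0.43 (standard error 0.11, adjusted p = 0.00597 by edgeR's quasi-likelihood test), also short of 2-fold. Scaled by library size alone, it was -0.21 (adjusted p = 0.0922 by edgeR), and without replicate 1 of either group it was -0.25. The log2 ratio of PACSIN2 to PACSIN3 was -0.10, 0.18 and 0.14 in Control sh and 0.98, 0.63 and 0.69 in VprBP sh, a difference of 0.69 (exact two-sided permutation test, p = 0.1, the smallest possible, adjusted p = 0.1 over the 4 ratios).

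The groups did not overlap for any of the 7 genes, which was also true of 79.5% of all genes tested. Across the 7, the log2 profiles of PACSIN2 and PACSIN3 were nearest to each other over the 6 samples, with a root mean square difference of 0.374 after centring each gene on its own mean. CAV2 and CAVIN1 followed at 0.492 and CAV1 and EHD2 at 0.703, whereas CAV1 and its neighbour CAV2 were 1.93 apart. With the groups this far apart, the distances mostly follow the differences in log2 fold change between genes. PACSIN2 and PACSIN3 changed little but in opposite directions (0.26 and -0.43). These distances are descriptions over samples that share libraries.

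Levels between genes were compared as counts per kilobase of exon and per 1000000 counts of the sample. The length was that of all annotated exons of a gene merged, 6578 bp for CAV2, which may exceed that of the transcripts expressed. The order between genes rests on this choice. On this scale CAV1 stood highest in Control sh at 276 ± 52.8, followed by CAVIN1 at 253 ± 14.5, EHD2 at 126 ± 6.82 and CAV2 at 59.0 ± 6.40 (SD, n = 3 each). PACSIN3 at 31.8 ± 2.47 and PACSIN2 at 20.2 ± 0.644 were lower, and CAVIN3, with 14.9, 14.6 and 15.4 in the 3 samples, was lowest. CAV1 and CAVIN1 overlapped, with 215, 304 and 309 against 237, 262 and 261 in the 3 samples, and did not differ beyond their spread, while the other neighbours in this order did not overlap. CAV1 and CAVIN1 were at percentiles 99.6 and 99.5 of the 21460 genes with a length, so the Control sh cells were rich in both transcripts.

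The order was different after VprBP knockdown. PACSIN2 at 28.0 ± 0.672 and PACSIN3 at 27.3 ± 3.26 led and overlapped each other, followed by CAVIN1 at 17.6 ± 1.13 and CAV2 at 7.99 ± 0.537 (SD, n = 3 each, on the same per-length scale). CAV1 had 3.75, 2.07 and 2.20, above EHD2 with 0.729, 1.83 and 1.66 in the 3 samples, and CAVIN3 was at 0. CAV1 then stood at percentile 55.3 of all genes with a length and EHD2 at 47.2, while CAVIN1 was at 86.7. The PACSIN transcripts were thus below the transcripts of both caveolins, CAVIN1 and EHD2 in Control sh and above them in VprBP sh.

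The other members of these families were read from the same fit. Of the 7 paralogues, 6 were tested, of which 2 were lower and 2 were higher. This count and those of the lists below stand beside 22.0% lower and 24.5% higher among all genes tested. CAVIN2, encoding another cavin that binds cavin-1, dropped from 691, 876 and 1048 counts to 0 in all 3 knockdown samples, at least 313-fold lower (adjusted p = 3.95e-08 by edgeR's quasi-likelihood test). CAVIN2 and CAVIN3 were thus both at 0 in every VprBP sh sample. The muscle cavin CAVIN4 rose from 6, 3 and 9 to 26, 13 and 21 counts, with a log2 fold change of 1.59 (adjusted p = 0.0116 by edgeR). The muscle caveolin CAV3 had 5, 2 and 8 counts after VprBP knockdown, 0 in each control, and was too low to be tested.

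EHD4, an endosomal relative of EHD2, fell from 3207, 3210 and 3078 normalized counts to 893, 927 and 880, and its log2 fold change was -1.81 (adjusted p = 3.25e-08 by edgeR's quasi-likelihood test). EHD1 and EHD3, which act in endosomal recycling, were not called, with log2 fold changes of 0.30 and 0.58. PACSIN1, the neuronal relative of PACSIN2, rose from 12.6, 18.3 and 18.8 normalized counts to 243, 268 and 267, and its log2 fold change was 3.95 (adjusted p = 1.12e-07 by edgeR's quasi-likelihood test).

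Of 8 genes for proteins that tie caveolae to the cytoskeleton, move them or cut them from the membrane, 4 were lower, 1 was higher and 3 were not called. Among those that fell, the actin crosslinker FLNA, the kinase SRC, which phosphorylates caveolin-1, and cortactin (CTTN) had log2 fold changes of -1.20, -2.40 and -2.33. DNM2, the dynamin that severs vesicle necks, rose by 1.17 on the log2 scale, from 4585, 4778 and 4465 to 7948, 11529 and 11726 normalized counts. DIAPH1, ABL1 and ROR1 were at -0.04, 0.71 and 0.95. Of the raft scaffolds, which form membrane domains apart from caveolae, FLOT2 fell by 1.62 on the log2 scale and FLOT1 rose by 1.32, and STOM at 0.52 was not called.

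Transcripts of 4 proteins known to reside in or signal from caveolae were lower in some cases and higher in others. TRPC1, a calcium channel, dropped from 247, 275 and 336 counts to 0, 4 and 8, and NOS3, the endothelial nitric oxide synthase, from 33, 17 and 32 counts to 0, 0 and 1. CD36, a fatty acid receptor, rose from 45.9, 16.1 and 25.3 to 1306, 1144 and 1163 normalized counts (log2 fold change 5.38). The insulin receptor gene INSR rose from 201, 52.7 and 53.5 to 459, 691 and 740 (log2 fold change 2.65), with replicate 1 above the other Control sh samples. All 4 passed edgeR's test in their direction, 2 lower and 2 higher.

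The clathrin route was read out as the other main path of membrane uptake. Of its 14 genes, 2 were lower, 0 were higher and 12 were not called. The adaptor subunit AP2B1 fell by 2.23 on the log2 scale and the clathrin light chain CLTB fell by 1.09, and the 12 others ranged from -0.996 (ITSN1) to 0.74 (AP2S1). Over all 5 lists together, 11 of 35 genes tested were lower, 6 were higher and 18 were not called, with a median log2 fold change of -0.31 against 0.08 over all genes tested. The share called, and the share in each direction, should be read against the 46.4%, 22.0% and 24.5% of all genes.

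**Figure D3:**
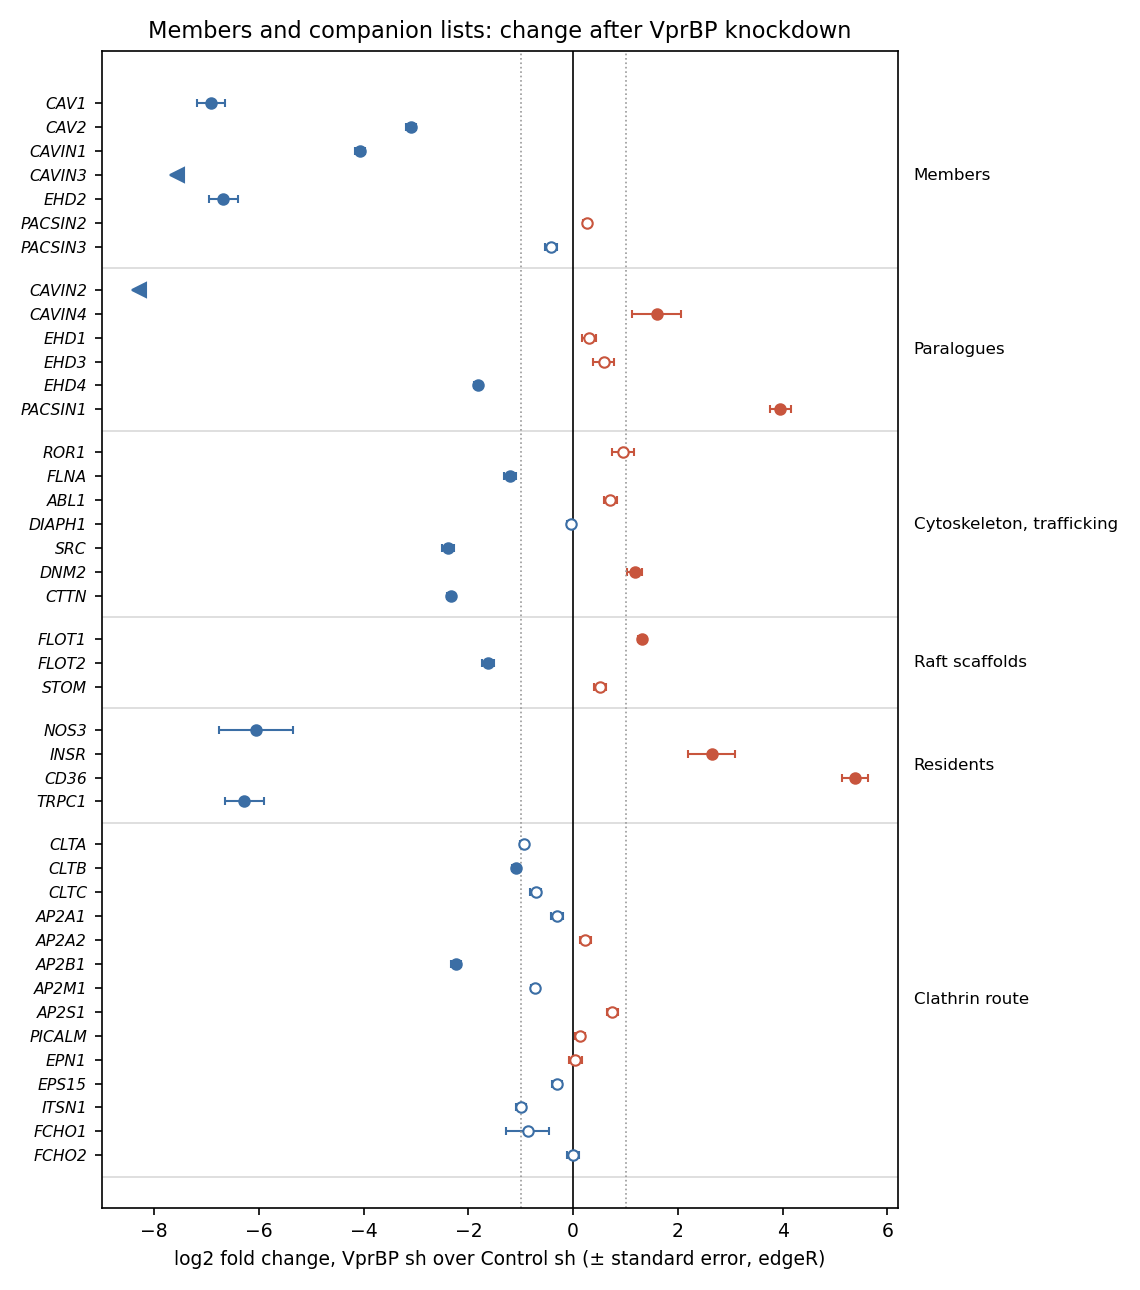
log2 fold change of VprBP sh over Control sh (± standard error, edgeR) for the 7 genes, labelled members, and the 5 lists of related genes, 1 of which is shown without 1 of its genes. Filled symbols passed the call, open symbols did not, triangles are bounds (the decrease is at least this large) for genes at 0 in every VprBP sh sample, and dotted lines mark 2-fold. Among the members, CAV1, CAV2, CAVIN1 and EHD2 lie from -3.10 down to -6.91 and CAVIN3 lies at its bound. Among the paralogues, CAVIN2 also lies at a bound and CAVIN4 is higher. Most clathrin route genes lie inside the dotted lines.

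The genes that flank each of the 7 were compared because both caveolin genes share a locus. Around CAV1 and CAV2, whose annotated ends are 16452 bp apart, MET (111016 bp past CAV1), which encodes the hepatocyte growth factor receptor, fell from 15883, 13882 and 14041 to 451, 317 and 376 normalized counts. Its log2 fold change was -5.26 (adjusted p = 2.84e-09 by edgeR's quasi-likelihood test). TFEC, which encodes a relative of MITF, went from 84, 174 and 279 counts to 0 in all 3 samples, at least 62.9-fold lower. TES, between TFEC and CAV2, had a log2 fold change of -0.67 and was not called, nor was CAPZA2 beyond MET at -0.22 or ST7 at 0.06. TES, with no call, thus lay between TFEC and CAV2, which both fell. It ends 28596 bp before the annotated start of the CAV2 gene, but the MANE Select transcript of CAV2 starts much farther away, at chr7:116499738.

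**Figure D4:**
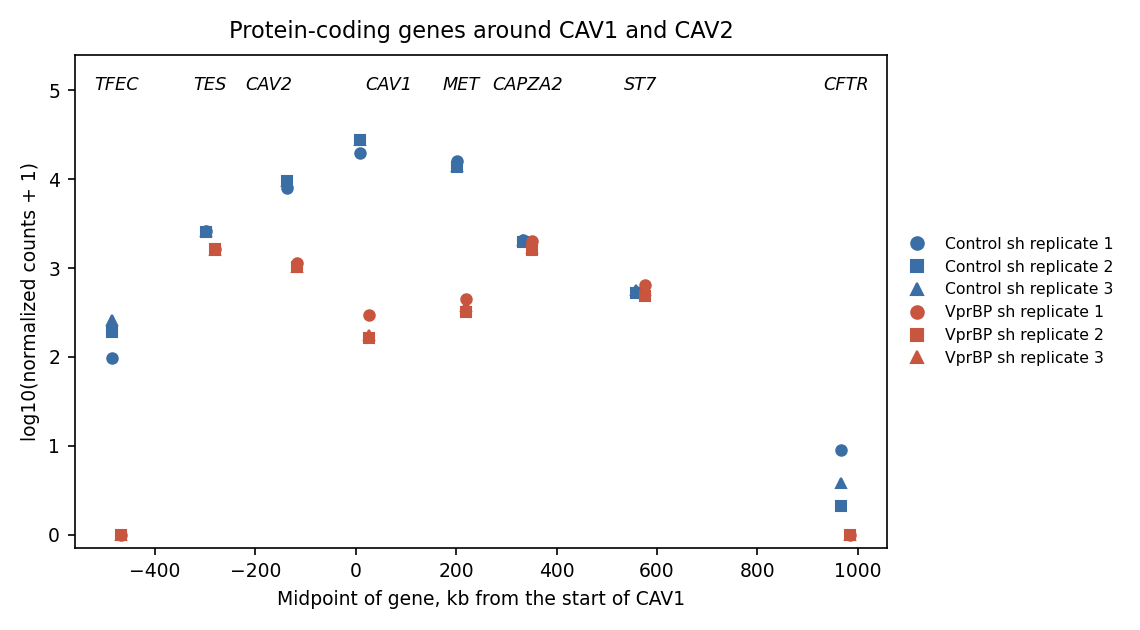
Normalized counts on a log10 scale (value plus 1) of protein-coding genes around CAV1 and CAV2 against the midpoint of each gene in kb from the start of CAV1, with Control sh in blue and VprBP sh in red, the red symbols shifted sideways so that both groups can be seen. CAV1, CAV2, MET and TFEC are lower in all 3 VprBP sh samples by more than 2-fold, while TES, CAPZA2 and ST7 differ by less than 2-fold, and CFTR had at most 7 counts and was not tested.

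Over all 7 genes, the 2 nearest protein-coding genes in the table on each side gave 24 neighbours, of which 4 were lower, 5 were higher, 14 were not called and 1 was too low to be tested, beside 22.0% lower and 24.5% higher among all genes tested. Next to CAVIN1, none of STAT3 (0.61), STAT5A (0.95), ATP6V0A1 (0.07) and NAGLU (-0.31) was called by log2 fold change. Next to EHD2, NAPA rose by 1.19, and BICRA (-0.08), NOP53 (-0.36) and SELENOW (0.37) were not called. Next to CAVIN3, SMPD1 rose by 1.06 and APBB1 by 1.60, and FHIP1B (-0.20) was not called. A4GALT fell by 7.45 and TTLL1 rose by 2.87 near PACSIN2, where BIK (-0.88) and ARFGAP3 (-0.31) were not called. C11orf49 fell by 1.28 and ACP2 rose by 1.05 near PACSIN3, where ARFGAP2 (0.67) and DDB2 (-0.93) were not called.

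Profiles over the 6 samples were then compared with 12797 other genes whose mean reached 100 normalized counts in at least 1 group. The profile nearest to CAV1 was that of RB1, which encodes the retinoblastoma protein, at a root mean square difference of 0.109 on the log2 scale, and it dropped from 2089, 2585 and 2513 normalized counts to 32.1, 15.4 and 17.5. LINC02241 was next at 0.157, but with 1.11, 0 and 0 normalized counts in VprBP sh its distance depends on the added constant of 1. PAK6 (0.0524) and SPATS2L (0.0592) were nearest to CAVIN1, and BLMH (0.0969) and PNMA8A (0.0996) to CAV2. SMN2 (0.0869) and ANKRD18B (0.124) were nearest to EHD2. SMN2 has a near-identical copy, SMN1, that can share its reads, and ANKRD18B, with 0, 2.06 and 1.52 normalized counts in VprBP sh, also depends on that constant. With the groups far apart, a near profile mostly means a near log2 fold change, such as -6.82 for RB1 and -6.91 for CAV1. These values describe likeness over the same 6 libraries only.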

How the data were processed

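Gene-level values were analysed for 3 Control sh and 3 VprBP sh samples, grouped by their titles. The authors used STAR to align single-end reads (hg38) and Partek Flow to quantify genes, and deposited estimated counts that were neither normalized nor pooled. Of these deposited values, 59.4% are whole numbers, and the 6 values of a gene sum to 10 or more. Labels name a SMARTER kit and the methods a strand-specific KAPA kit. The design had been written for counts, so the estimated counts were rounded to whole numbers first. Samples held 18195949 to 26883948 counts in total.

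The groups were compared with edgeR 4.0.16 in R 4.3.3 (quasi-likelihood test, upper quartile factors at quantile 0.75, edgeR's filter with a minimum of 10, no replicate block), which tested 16756 genes. It replaces the Gene Specific Algorithm that the authors ran. At the same thresholds it called 7778 genes, 3681 lower and 4097 higher. The paper reports far fewer, with a larger part of them higher after knockdown. Standard errors were taken as the absolute log2 fold change over the root of the F statistic. A fold against a group at 0 was computed against 3 counts per sample. Ratios between genes used a pseudocount of 1 and exact permutation tests (scipy 1.17.1). Exons, overlaps and neighbours came from GENCODE 44 on hg38, and promoters from RefSeq. The fit was also run on simulated counts in which far fewer genes changed than were called here, so that run does not test the scaling of these data.

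The 7 genes and the other lists were chosen with earlier results of these data known. The values of 1 gene of the lists are not reported here. Genes were named as follows: DCAF1, the 7 genes, called genes of the lists, the 2 nearest protein-coding genes per side, and the 2 nearest profiles for CAV1, CAV2, CAVIN1 and EHD2. Genes named beyond that, ST7, CFTR and uncalled list members among them, were chosen after their values were seen. Alternatives were TMM factors, library size alone, DESeq2 1.42.0, limma-voom (limma 3.58.1), no filter, a minimum of 10 counts in every sample, the replicate number as a block, leaving out each replicate and a pseudocount of 10. Leaving out replicate 1 of both groups, and summing replicates 2 and 3, were added after the data were examined.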

Additional observations from a re-analysis of the deposited data

How the results depend on the processing

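The calls of CAV1, CAV2, CAVIN1 and EHD2 as lower, and the lack of a call for PACSIN2 and PACSIN3, held under every alternative run, and CAVIN3 was called lower wherever it was tested. Requiring 10 or more counts in every sample removes CAVIN3, which leaves 4 of the 7 genes called lower. It also brings the genes called in the whole table from 7778 to 4690, since genes under 10 counts in any sample are not tested. Leaving out each replicate gave 7949 to 8142 genes called and 5 of the 7 genes lower each time. The log2 fold change of DCAF1 ran from -0.82 to -0.46 in those fits. The difference of the log2 ratio ran from -4.05 to -3.71 for CAV1 over CAV2, from -3.13 to -2.67 for CAV1 over CAVIN1 and from 0.59 to 0.76 for PACSIN2 over PACSIN3, where 3 samples against 2 cannot go below p = 0.2 in the exact permutation test. The adjusted p of PACSIN2 ran up to 0.129 by edgeR over all alternatives, with replicates 2 and 3 summed. The replicate numbers were not taken as pairs, since the study's methods name no block. Deviations of same-numbered samples, computed after the fit, had correlations of -0.06, 0.02 and -0.05 over 16756 genes. With the replicate block, 7686 genes were called, 5 of the 7 genes were lower and 0 higher, and the log2 fold change of DCAF1 was -0.60. The median over all genes tested moved on the log2 scale from 0.08 to 0.29 with library size alone and to -0.04 with DESeq2. Depth limits CAVIN3 and CAVIN2 in VprBP sh, where a count of 0 allows up to 3 counts per sample.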
